A study of Mus musculus with 6 samples.

Results

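The genes described here are 10 heat shock chaperones of the cytosol and the mitochondrial matrix, namely Hspa4, Hspa4l, Hsph1, Hspa8, Hspa1b, Hsp90aa1, Hsp90ab1, Hspa9, Hspd1 and Hspe1. They were chosen by name, and a gene was measured where a probe of the array carried its symbol alone in the platform annotation. By this rule 6 of the 10 genes had a probe, with 8 probes in all among the 33012 of the array, and Hspa8, Hspa1b, Hsp90aa1 and Hsp90ab1 were not analysed here. Each gene was read at its brightest probe, and the other probes, which only Hspd1 had, are given as well. All samples were RAW 264.7 cells, a mouse macrophage-like line, stimulated with LPS, the bacterial endotoxin that activates macrophages, at 1 μg/mL for 24 h. Of these, 3 samples (LPS) had no other treatment, and 3 (15-HETE + LPS) received 40 μM 15(S)-HETE, a hydroxylated product of arachidonic acid, just before the LPS. Every sample was a biological replicate that pooled 6 wells, and the labels give 5% serum, which differs from the study's methods. The p-values measure only the spread among these samples. No sample without LPS was part of the series, so the levels are those of activated cells of a single line.

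Heat shock proteins hold unfolded proteins and help them to reach their folded form. HSP70 proteins bind and release their clients in a cycle of ATP hydrolysis, which J-domain proteins speed up and nucleotide exchange factors reset. The HSP110 proteins (Hspa4, Hspa4l and Hsph1) are distant HSP70 relatives that act as such exchange factors in the cytosol. In the mitochondrial matrix the HSP70 protein mortalin (Hspa9) helps to pull in and fold imported proteins, and the chaperonin ring of HSP60 (Hspd1) with its HSP10 lid (Hspe1) gives them a closed chamber to fold in. In macrophages, as in most cells, heat and other damage to proteins is known to induce many of these genes through heat shock factors, which bind repeats of a short GAA unit in alternating orientation.

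The promoter sequences are shown because the windows found for the measured genes differ in such a repeat. RefSeq promoter windows (GRCm38.p6, 250 bases before to 50 after a start) were found for Hspa4, Hspa4l, Hsph1, Hspd1 and Hspe1, or 5 of the 6 measured genes. A heat shock element of 3 units was searched as GAANNTTCNNGAA on both strands, so that its reverse complement counted too, and 0.603% of 32851 windows held it. It was found in windows of Hspd1, Hspe1 and Hsph1 and in none of Hspa4 or Hspa4l. The shorter forms GAANNTTC and TTCNNGAA, both of which lie within each match of 3 units, were in 7.86% and 8.52% of all windows and also in none of Hspa4 or Hspa4l. The gene models of Hspd1 (chromosome 1, 55077833 to 55088243, minus strand) and Hspe1 (55088148 to 55091317, plus strand) lie head to head and overlap by 96 bases, and both genes have a window over the same stretch. There 4 units in a row stood 89 to 72 bases before the Hspe1 start, and the stretch is printed with these 18 bases in capitals.
Hspe1 and Hspd1, chr1:55088053-55088082, plus strand: ggtccgTTCTAGAACCTTCCGGAAggcccc
Hsph1 had 2 windows with different starts, and the match lay behind both of them. It stood at positions 37 to 49 counted from the first start as 1, and at 16 to 28 from the other. A match of the shorter form TTCNNGAA also lay before both starts, at -33 to -26 and -54 to -47. The match of 3 units is printed in capitals.
Hsph1, chr5:149636287-149636316, minus strand: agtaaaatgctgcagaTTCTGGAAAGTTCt
The 150 bases before the Hspa4 start held the palindrome TCTCGCGAGA, in capitals, which was picked after the sequence had been read and was found in 0.466% of all windows on either strand.
Hspa4, chr11:53300480-53300629, minus strand: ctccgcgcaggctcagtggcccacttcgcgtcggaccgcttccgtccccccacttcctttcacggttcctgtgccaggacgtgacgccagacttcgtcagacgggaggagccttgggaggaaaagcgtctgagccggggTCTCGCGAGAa
A match describes letters only, and a missing match says nothing of the factor.

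The deposited values are quantile normalized intensities with a median of 837 in every array, and all 8 chaperone probes lay above the middle of the array. The macrophage markers with a probe, 9 of 14, were all above it too, with mean intensities of 1021 to 2119350 in LPS samples and 3345 to 2573370 in 15-HETE + LPS samples. Limma called 1 of them, Cd86, higher after 15-HETE, with an adjusted p of 0.0498, just under the threshold of 0.05. Of all probes 0.509% were called higher. At an unadjusted p under 0.05, 2 of the 9 were higher, against 8.62% of all probes. Of the markers of other cell types 12 of 16 had a probe, with means of 204 to 2949 and 194 to 2624, 4 of them above the middle of the array, and limma called 0 (0 at an unadjusted p under 0.05 and 0 with the intensity trend). Arrays correlated across probes, which are not independent replicates, at 0.972 to 0.979 within LPS, 0.955 to 0.962 within 15-HETE + LPS and 0.943 to 0.962 between the groups. LPS replicate 1 stood apart for several chaperones, so their log2 fold changes are also given without it, and those of other genes where this turns or clearly moves the value. Among probes above the middle of the array, LPS replicate 1 was at 1.5 times or more the mean of LPS replicates 2 and 3 for 9.5%, and below that mean by a factor of about 1.5 or more for 14.8%. Which arrays were processed together is not given in the sources used here, so a difference between sets of arrays and the effect of the treatment cannot be told apart. Precision is limited by how few arrays there are.

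At the brightest probes Hspa4 was the chaperone called higher after 15-HETE, by 3.47-fold, and its relative Hspa4l lay lower without passing the test. Of the 6 measured genes limma called 1 higher and 0 lower (adjusted p under 0.05), where 0.509% of all probes were called higher and 0.442% lower. When the prior variance of limma was let vary with the mean signal of a probe (the intensity trend), the counts were 1 higher, Hspa4, and 1 lower, Hspa4l, against 3.87% and 4.96% of all probes. Shares of all probes, here and below, include dim ones, while the probes of these 6 genes all lay above the middle of the array. The groups did not overlap for Hspa4 in the upward direction and for Hspa4l in the downward one, while 13.7% of all probes were separated upward and 16.3% downward. The other 4 genes overlapped at their brightest probes. The further probes of Hspd1, described below, were both separated upward. The median log2 fold change, 15-HETE + LPS minus LPS throughout, was 0.21 over the 6 genes and 0.01 over all probes. The arrays measure RNA of whole cultures, in which a change in the number of cells of a kind and a change in RNA per cell cannot be told apart.

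Hspa4 encodes the exchange factor also called APG-2, and its gene lies on chromosome 11 (53259814 to 53300479). Its intensity was 4650, 3800 and 3614 in LPS replicates 1 to 3, and 13494, 14393 and 13765 in 15-HETE + LPS replicates 1 to 3. Every treated sample lay far above every LPS sample, and the spread within both groups was small beside that distance. The means were 4021 ± 552 (SD, n = 3) and 13884 ± 461 (SD, n = 3), with a log2 fold change of 1.8, a 95% confidence interval of 1.35 to 2.24 and an adjusted p of 0.0330 from limma. The adjusted p was 0.000441 with the intensity trend. The exact permutation test (two-sided) gave p = 0.1, the smallest that 3 samples against 3 can give. With 1 sample left out the log2 fold change ran from 1.72 to 1.91, limma called 0 probes of the array (adjusted p of Hspa4 between 0.0675 and 0.184), and with the intensity trend the adjusted p of Hspa4 was between 9.37e-06 and 0.00867. The study listed Hspa4 among its changed genes from these same arrays, which is no independent evidence.

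**Figure D1:**
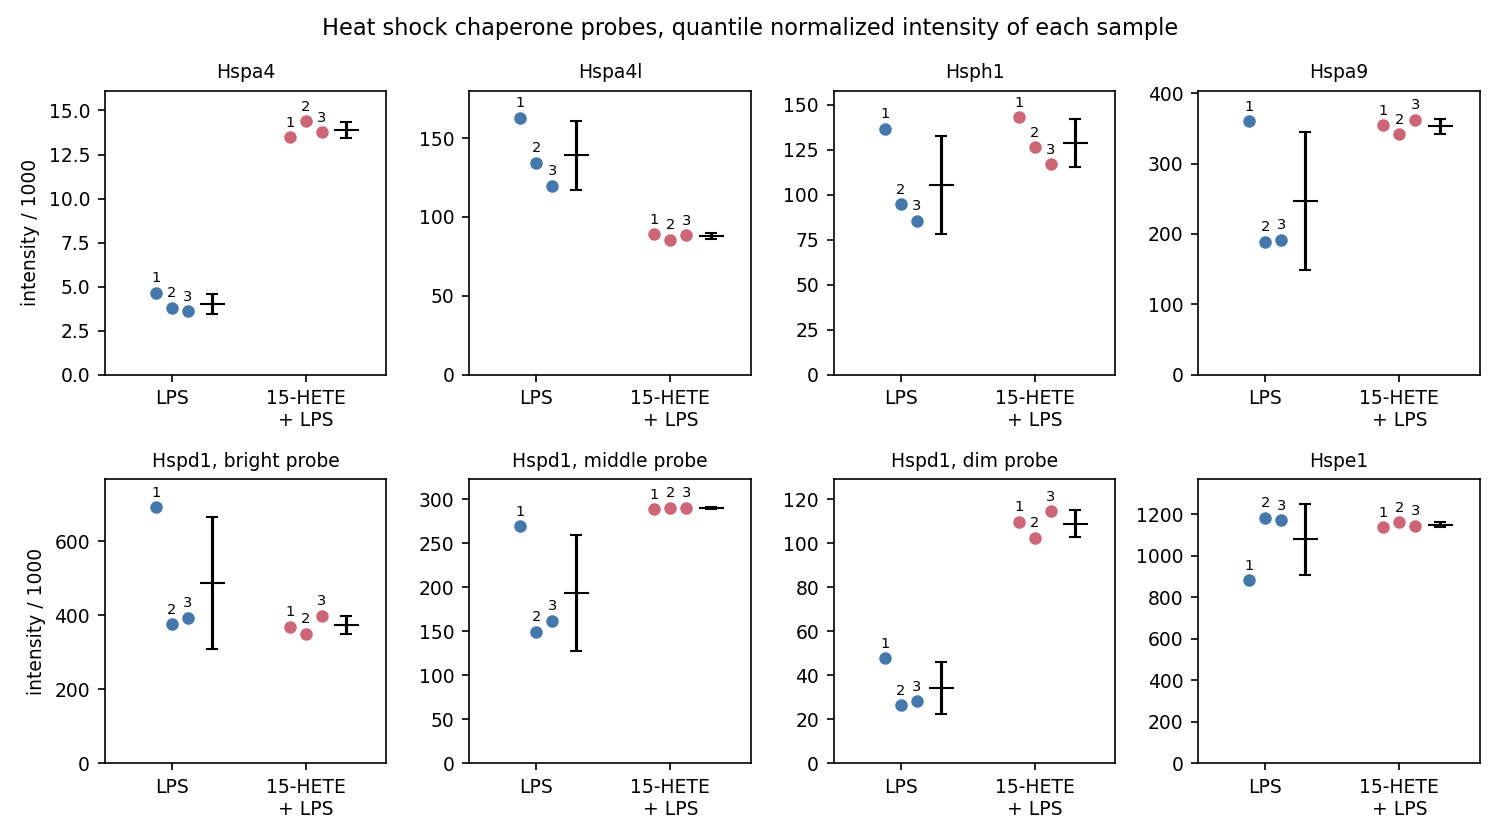
Quantile normalized intensity (divided by 1000, linear axes from 0) of the 8 chaperone probes in each of 3 LPS samples (blue) and 3 15-HETE + LPS samples (red), numbered by replicate, with the mean and SD of each group in black. The Hspa4 samples are separated at 3614 to 4650 and 13494 to 14393, and LPS replicate 1 lies near the treated samples for Hspa9, at 359983.

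Hspa4l, or APG-1, is the closest relative of Hspa4 in this family and lies on chromosome 3 (40744500 to 40796103). It had 162997, 134464 and 119811 in LPS samples, and 89049, 85694 and 88461 in 15-HETE + LPS samples. The treated samples lay within a narrow band below all LPS samples. The log2 fold change was -0.65, with a 95% confidence interval of -1.12 to -0.19 and an adjusted p of 0.142 from limma, or 1.57-fold lower. The adjusted p was 0.0182 with the intensity trend, and between 0.000571 and 0.0880 with the trend and 1 sample left out. The test was thus passed under the trend, as it was when probes above the middle of the array were tested alone (adjusted p = 0.0362), and with the trend and 1 sample left out only without LPS replicate 1 and without LPS replicate 3.

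Within each array the ratio of Hspa4 to Hspa4l combines the values above. Every treated sample was higher for Hspa4 and lower for Hspa4l, so the ratio had to separate the groups. Between different probes the size of a ratio has no meaning, and only its change can be read. It was 0.0285, 0.0283 and 0.0302 in LPS samples and 0.152, 0.168 and 0.156 in 15-HETE + LPS samples, a 5.46-fold change. On the log2 scale this change was 2.45, against SDs of 0.051 and 0.077 within the groups. It was the largest of 6 such ratios computed, and exact permutation gave p = 0.1 for it, or 0.12 when adjusted over the 6. With the separation given by the single genes, this p adds no support.

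Hsph1 encodes HSP105, the HSP110 protein best known for its induction by heat, and lies on chromosome 5 (149616843 to 149636498). Its intensity was 136576, 94539 and 85454 in LPS samples, and 142933, 126207 and 116938 in 15-HETE + LPS samples. LPS replicate 1 lay within the range of the treated samples, while the other LPS samples lay below all of them. Its log2 fold change was 0.31, with a 95% confidence interval of -0.27 to 0.89 and an adjusted p of 0.515 from limma. Under the intensity trend the adjusted p was 0.344. Without LPS replicate 1 it was 0.51, with an adjusted p of 0.189 from limma and 0.00325 under the trend. Leaving out samples under the trend was an alternative chosen after seeing the data. Without any 1 of the other samples it was 0.17 to 0.38, with adjusted p-values of 0.370 to 0.681 under the trend. The ratio of Hspa4 to Hsph1 rose in every treated array, from 0.0340, 0.0402 and 0.0423 to 0.0944, 0.114 and 0.118, a 2.80-fold change. The Hspa4 groups lay further apart than Hsph1 varied over all samples, so this ratio too had to separate the groups. Exact permutation gave p = 0.1, the smallest possible, or 0.12 when adjusted over the 6 ratios, and adds no support.

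**Figure D2:**
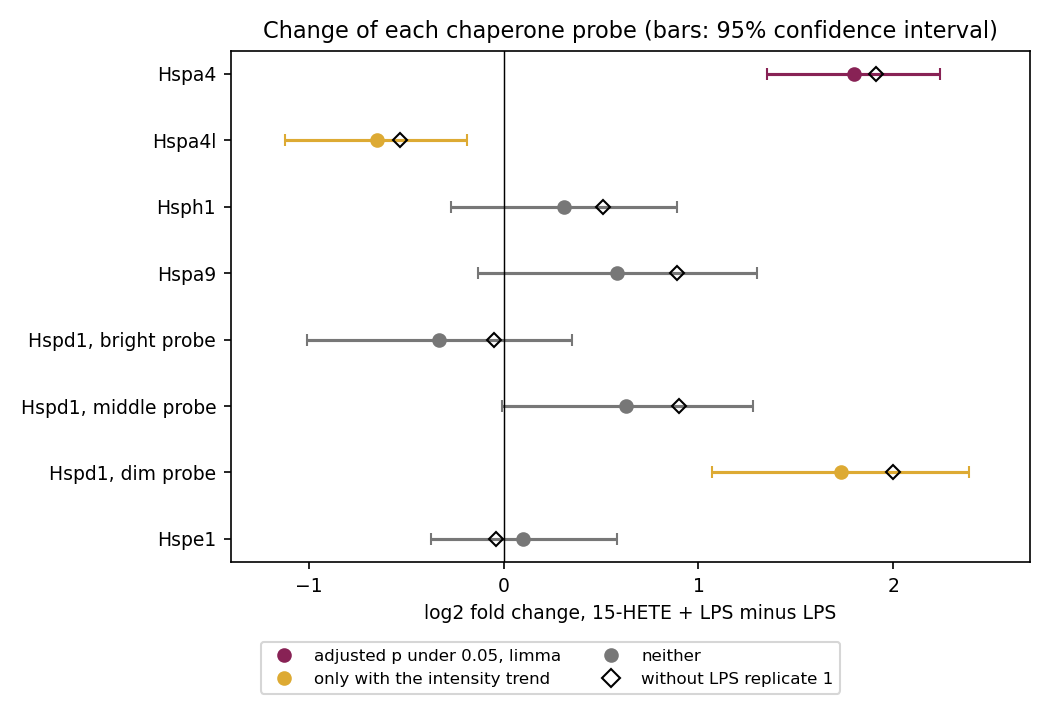
Log2 fold change (15-HETE + LPS minus LPS) of the 8 chaperone probes, as points with 95% confidence intervals from limma over 3 samples a group, and as open diamonds without LPS replicate 1. Hspa4 at 1.8 passed the adjusted test, Hspa4l at -0.65 and the dim Hspd1 probe at 1.73 passed with the intensity trend and not without it, and the probes of Hspd1 lie on both sides of 0.

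At the brightest probes of the mitochondrial chaperones limma called none of the 3, and the group means lay closer together than LPS replicate 1 lay to the other LPS samples. Hspa9, the HSP70 protein of the matrix, had 359983, 188874 and 191894 in LPS samples, and 354315, 342164 and 362525 in 15-HETE + LPS samples. LPS replicate 1 lay at the level of the treated samples, at 1.89 times the mean of LPS replicates 2 and 3. Between the groups it had a log2 fold change of 0.58, with a 95% confidence interval of -0.13 to 1.30 and an adjusted p of 0.333 from limma (0.168 with the intensity trend). It was 0.89 without LPS replicate 1, and 0.43 to 0.61 without any 1 of the others. Without LPS replicate 1 and with the trend, 3 genes (Hspa4, Hsph1 and Hspa9) were called higher and 1, Hspa4l, lower, where 7.86% of all probes were called higher and 7.69% lower.

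Hspd1, the subunit of the HSP60 ring, was read by 3 probes that the annotation assigns to the same transcript, and they disagreed. The bright probe had 691732, 375055 and 392454 in LPS samples, and 368540, 349899 and 397920 in 15-HETE + LPS samples. Beside LPS replicate 1, the samples of both groups shared a range. The log2 fold change was -0.33, with a 95% confidence interval of -1.01 to 0.35 and an adjusted p of 0.560 from limma, and -0.05 without LPS replicate 1.

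The middle probe of Hspd1 had 269553, 149503 and 162110 in LPS samples, and 288828, 290731 and 290731 in 15-HETE + LPS samples. All treated samples lay above all LPS samples, though LPS replicate 1 came close. At this probe the log2 fold change was 0.63, with a 95% confidence interval of -0.01 to 1.28 and an adjusted p of 0.261 from limma, and 0.90 without LPS replicate 1. The dim probe had 47701, 26422 and 28118 in LPS samples, and 109861, 102600 and 114626 in 15-HETE + LPS samples. Here the groups stood well apart. The log2 fold change was 1.73, with a 95% confidence interval of 1.07 to 2.39, and the adjusted p of 0.0526 from limma missed the threshold, while that with the intensity trend was 0.00176. With the trend and any 1 sample left out the adjusted p of the dim probe was between 7.27e-07 and 0.0158.

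The Hspd1 probes moved together within the LPS group and apart between the groups. Among 15-HETE + LPS samples the bright and dim probes kept the same order, while the middle probe was nearly flat, at 288828 to 290731. LPS replicate 1 was at 1.8, 1.73 and 1.75 times the mean of LPS replicates 2 and 3 at the bright, middle and dim probes. The ratio of the dim to the bright probe was 0.069, 0.0704 and 0.0716 in LPS samples and 0.298, 0.293 and 0.288 in 15-HETE + LPS samples. This is a 4.17-fold change, 2.06 on the log2 scale, with SDs of 0.028 and 0.025 within the groups. The ratio of the middle to the bright probe changed as well, by 1.95-fold. Both were separated between the groups (exact permutation p = 0.1 for each, 0.12 adjusted over 6 ratios). The values of the single probes already required this separation, so these p-values add no support. Of 283 genes whose several probes all lay above the middle of the array, 15.5% had probes 1 or more apart in log2 fold change, with a median distance of 0.46. Hspd1, at 2.06, was itself among the 5 (1.77%) that reached this distance. The distance is the range over all probes of a gene, which can only widen with more probes. The genes were not matched to Hspd1 by number of probes. What the probes of Hspd1 measure apart from each other was not tested.

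**Figure D3:**
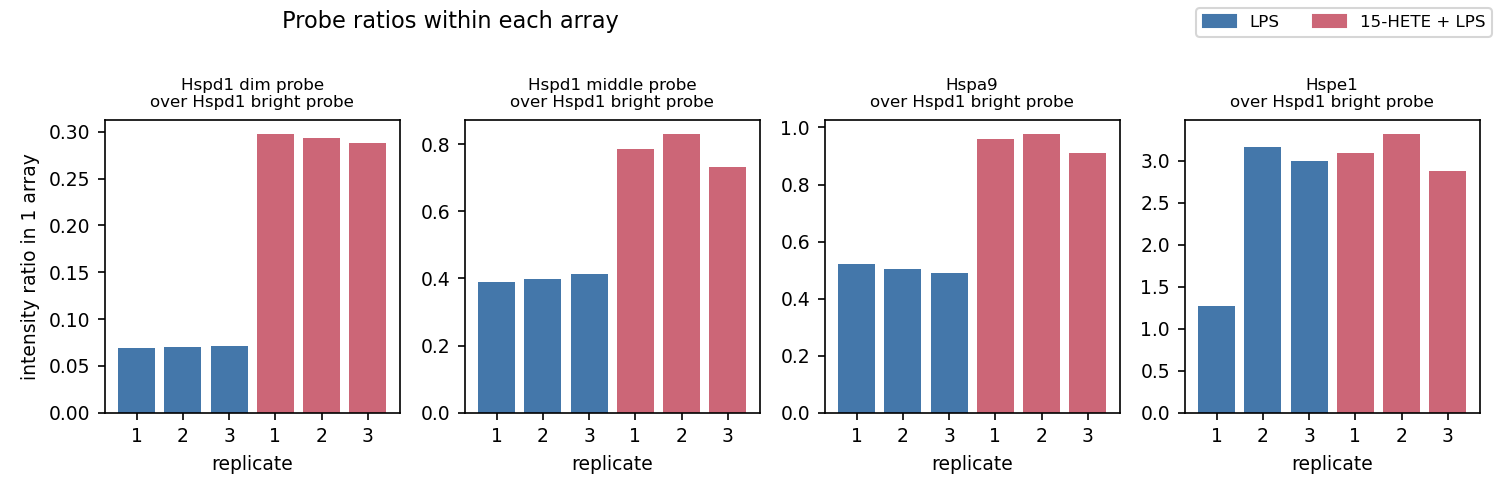
Ratio of the intensities of 2 probes within each array (linear axes from 0), with the bright Hspd1 probe below the line, for 3 LPS arrays (blue) and 3 15-HETE + LPS arrays (red) by replicate. The dim Hspd1 probe stands at 0.069 to 0.0716 and at 0.288 to 0.298 of the bright one, and the ratio of Hspe1 sets LPS replicate 1 apart at 1.27.

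Hspa9 followed the bright Hspd1 probe in the same manner within each group. Their ratio was 0.520, 0.504 and 0.489 in LPS samples and 0.961, 0.978 and 0.911 in 15-HETE + LPS samples, so that it changed by 1.88-fold with SDs of 0.045 and 0.053 on the log2 scale. The deviation of LPS replicate 1 was thus shared by Hspa9 and all Hspd1 probes and is not seen in this ratio, while the difference between the groups is.

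Hspe1, the HSP10 lid that works with HSP60, did not pass the test. It had 881053, 1184358 and 1171573 in LPS samples, and 1138886, 1162606 and 1146211 in 15-HETE + LPS samples. Here LPS replicate 1 was the lowest sample of all, at 0.748 times the mean of the other LPS samples, opposite to its place for Hspd1 and Hspa9. For Hspe1 the log2 fold change was 0.10, with a 95% confidence interval of -0.37 to 0.58 and an adjusted p of 0.806 from limma, and -0.04 without LPS replicate 1. The ratio of Hspe1 to the bright Hspd1 probe was 1.27, 3.16 and 2.99 in LPS samples and 3.09, 3.32 and 2.88 in 15-HETE + LPS samples, and the groups overlapped (exact permutation p = 0.5). The Hspe1 window and 1 of the 2 Hspd1 windows hold the stretch with the 4 GAA units printed above. Side by side, the log2 fold changes are -0.33, 0.63 and 1.73 at the probes of Hspd1 and 0.10 at the probe of Hspe1.

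Of 115 partner genes, which supply, regulate or extend these chaperones, 89 had a probe, and limma called 0 at an adjusted p under 0.05, against 13 higher and 5 lower at an unadjusted p under 0.05. Of all probes 8.62% were higher and 11% lower at that unadjusted level, 19.6% together. The total of 18 of 89 seen here is near that share. By direction more of the partner genes were higher than lower, the reverse of all probes, and this difference was not tested. Under the trend 7 of the 89 were higher and 2 lower, against 3.87% and 4.96% of all probes. Of the 89 genes 73 lay above the middle of the array, while these shares include dim probes. Their median log2 fold change was 0.10, and 50 of 89 were above 0, where 50.5% of all probes were.

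Among HSP70 relatives all 6 measured genes had a positive log2 fold change, with a median of 0.75, from 0.13 for Hspa13 (0.01 without LPS replicate 3) to 1.31 for Hspa2. Hspa12b, a dim probe at 1.13, had 1082, 281 and 194 in 15-HETE + LPS samples. Its value fell to 0.39 without 15-HETE + LPS replicate 1. Hspa12a, dim as well and at 0.15, turned to -0.01 without 15-HETE + LPS replicate 2. The groups overlapped for both of these. Hspa2, an HSP70 best known from the testis, had 956, 1374 and 707 in LPS samples and 2363, 2652 and 2272 in 15-HETE + LPS samples. The groups did not overlap, and the adjusted p was 0.0835 from limma and 0.0315 with the intensity trend. Hspa14, which works at the ribosome, had 0.44 and passed with the trend as well (adjusted p = 0.0349).

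The J-domain proteins, 26 of 34 measured, ran from -1.22 for Dnajb5 to 1.22 for Dnajb8, with a median of 0.23. The value of Dnajb8, a dim probe, rested on 1 array, since its treated samples had 3827, 567 and 255 against 252 to 426 in LPS samples, and it was 0.11 without 15-HETE + LPS replicate 1. Dnaja3, the J-domain partner of Hspa9 in mitochondria, had 20103, 15744 and 14854 in LPS samples and 26007, 27343 and 27852 in 15-HETE + LPS samples. Its treated samples were all above the LPS samples (0.69, adjusted p = 0.132 from limma and 0.0159 with the intensity trend). Dnajc8, a J-domain protein of the spliceosome, had 0.55 and passed with the trend too (adjusted p = 0.0379).

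Of the nucleotide exchange factors and other cofactors of HSP70, 10 of 12 had a probe, 7 of them with a negative log2 fold change, from -0.76 for Grpel1, the exchange factor of the matrix, to 0.19 for Hscb, a J-domain cochaperone of iron-sulfur cluster assembly. Neither value held when 1 array was left out, as Grpel1 was at -0.04 without 15-HETE + LPS replicate 1 and Hscb at -0.13 without LPS replicate 1, and the groups overlapped for both. Bag1, an exchange factor for HSP70 in the cytosol, had 96776, 104941 and 112079 in LPS samples and 69407, 74696 and 72113 in 15-HETE + LPS samples. It lay lower in every treated sample, with a log2 fold change of -0.54 (adjusted p = 0.162 from limma and 0.0195 with the intensity trend).

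The HSP90 cochaperones, 14 of 18 measured, had a median of 0.09, from -0.61 for the immunophilin Fkbp5 (-0.36 without 15-HETE + LPS replicate 1) to 1.24 for the myosin chaperone Unc45a (1.77 without LPS replicate 1). With the trend the phosphatase Ppp5c was higher (0.77, adjusted p = 0.0229) and Tomm34, which hands proteins to mitochondria, was lower (-0.49, adjusted p = 0.0304). Both missed the threshold of limma without it, at 0.132 and 0.198. Of the HSP90 paralogs the mitochondrial Trap1 had -0.13 and Hsp90b1 of the endoplasmic reticulum had 0.65, and these were 0.10 and 0.97 without LPS replicate 1.

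The TRiC chaperonin and prefoldin, which fold actin and tubulin, had 11 of 14 genes measured and 7 with a negative log2 fold change, from -0.61 for Cct4 to 0.95 for Pfdn2, or -0.35 and 0.57 without LPS replicate 1. For mitochondrial proteostasis 10 of 12 genes had a probe, from -0.53 for the protease Yme1l1 to 0.39 for the import motor subunit Timm44. At the brightest probes limma called 0 genes of either list with or without the trend, while 1 and 0 were higher and 1 and 1 lower at an unadjusted p under 0.05, the level that 19.6% of all probes passed. A further, dimmer probe of the mitochondrial Clpx lay outside that range, at 1.28. It passed with the trend (adjusted p = 0.00429) and not without it (0.0587).

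Of the small heat shock proteins, which hold unfolded clients without ATP, 7 of 10 were measured, from -0.48 for Hspb7 (-0.18 without 15-HETE + LPS replicate 2) to 1.14 for Cryab. Cryab, the αB-crystallin, had 1863, 2081 and 2398 in LPS samples and 6704, 4988 and 2972 in 15-HETE + LPS samples. Its treated samples were above all LPS samples but spread widely among themselves (adjusted p = 0.140 from limma and 0.0415 with the intensity trend). The heat shock factor Hsf2 had 7349, 6127 and 5550 in LPS samples and 11095, 10548 and 9551 in 15-HETE + LPS samples. The groups did not overlap (0.72, adjusted p = 0.123 from limma and 0.0207 with the trend). Of the other regulators, 3 of 6 measured in all, Hsf4 had 0.09 (0.01 without LPS replicate 1) and Hsbp1, which binds heat shock factors, had 0.21 (-0.10 without LPS replicate 1).

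**Figure D4:**
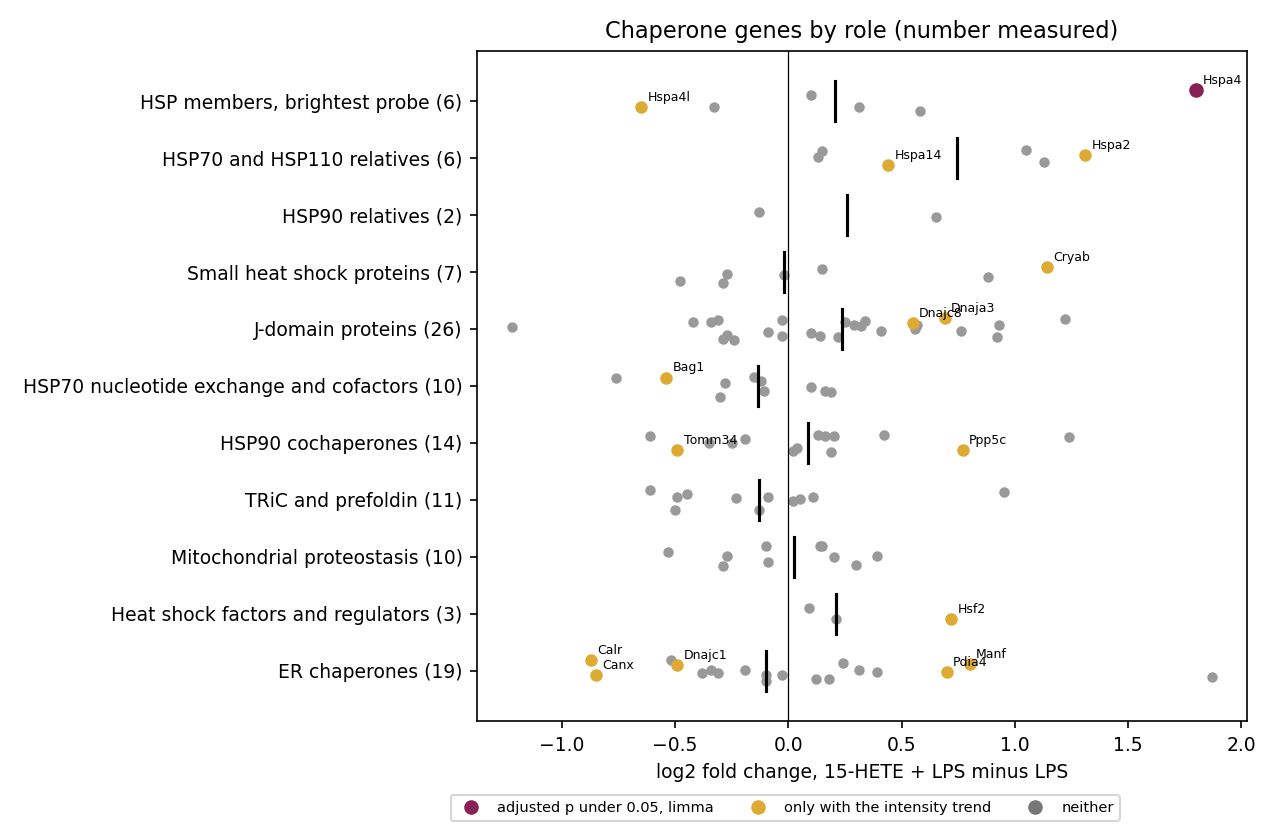
Log2 fold change (15-HETE + LPS minus LPS) of each measured gene at its brightest probe, for the 6 heat shock chaperones, the partner genes by role and the chaperones of the endoplasmic reticulum, with the median of each list as a black bar. Hspa4 at 1.8 passed limma, and named genes in yellow, from Calr at -0.87 to Hspa2 at 1.31, passed with the intensity trend and not without it.

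The chaperones of the endoplasmic reticulum are set beside those of the cytosol and mitochondria as the nearest group. Of 21 genes 19 had a probe, with a median log2 fold change of -0.10, from -0.87 for Calr to 1.87 for the collagen chaperone Serpinh1, which had 168, 141 and 281 in LPS samples and 382, 4229 and 203 in 15-HETE + LPS samples (adjusted p = 0.405 from limma, and 0.56 on the log2 scale without 15-HETE + LPS replicate 2). Limma called 0 of them, against 2 higher and 3 lower at an unadjusted p under 0.05, a level that 19.6% of all probes passed. Under the trend it called 2 higher and 3 lower, where 3.87% and 4.96% of all probes were called higher and lower. Of the 19 genes 18 lay above the middle of the array, while these shares include dim probes. The lectin chaperones Calr and Canx, which fold glycoproteins, were both lower with the trend (-0.87 and -0.85, adjusted p = 0.00638 and 0.0336), as was the J-domain protein Dnajc1 (-0.49, adjusted p = 0.0209). Calr had 449084, 365767 and 387310 in LPS samples and 202591, 213879 and 238603 in 15-HETE + LPS samples. The treated samples all lay below the LPS samples. The disulfide isomerase Pdia4 was higher with the trend (0.70, adjusted p = 0.0392). Manf, a secreted protein induced by stress of this compartment, was higher too (0.80, adjusted p = 0.0140), while its HSP70 protein Hspa5 had -0.19. Whether the 2 compartments differ was not tested.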

How the data were processed

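Total RNA of the 6 samples was labelled and hybridized by the authors to ABI mouse genome survey arrays. Probe intensities were read with the array software and quantile normalized before they were deposited, and 33012 probes without a missing value are given. The filter on S/N and flags is not visible in the table and was not repeated. Intensities were turned to log2 without background correction, and limma 3.58.1 (R 4.3.3) was fitted to all probes with lmFit and eBayes. Its two-sided p-values were adjusted by Benjamini-Hochberg over the whole array, and 0.05 was the limit for a call.

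Gene names came from the annotation of the platform, in which 247 probes have several symbols and 18354 list no gene. Named were all 10 chaperones and, of the other lists, genes that passed and the lowest and highest of each list. Also named, and chosen after their values were seen, were Hsp90b1, Trap1, Hsbp1, Hsf4, Hspa5, Hspa12a, Hspa12b, Hspa14 and genes passing with the intensity trend. The genes and lists were chosen with earlier results of these data known.

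Promoter windows came from RefSeq (GRCm38.p6), and sequences of 1 chromosome were left out. Alternatives were other priors and tests, an offset, scaling, a filter on dim probes, the replicate number as a block, other probe choices and leaving out each sample. The limma fits and the t-test were tested on simulated data.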

Additional observations from a re-analysis of the deposited data

How the results depend on the processing

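On the whole array, 314 probes were called by limma, 2917 with the intensity trend, 162 with a robust prior, 703 with an offset of 100 and 2796 among probes above the middle of the array, and by the methods' t-test 385 when adjusted over probes past the fold rule of the methods (1.8-fold in 2 of 3 treated samples) and 0 when adjusted over all probes, against 4987 at an unadjusted p under 0.05. With 1 sample left out limma called 0 to 0 probes and 0 to 0 of the 6 chaperones, against 4979 to 6636 probes and 2 to 4 chaperones at an unadjusted p under 0.05, so such a loss tells nothing of single genes. Of the 6 chaperones, 1 was called by limma, 2 with the intensity trend (Hspa4 and Hspa4l), 2 among probes above the middle of the array and by the methods' t-test 1 (Hspa4) over probes past the fold rule and 0 over all probes, and with the trend and 1 sample left out, 1 to 4, the highest without LPS replicate 1. Of the partner genes 9 passed with the trend and 7 among probes above the middle, and of the chaperones of the endoplasmic reticulum 5 and 4, and 1 with the methods' t-test adjusted over probes past its fold rule. With the replicate number as a block 0 probes and 0 chaperones were called (5519 and 2 at an unadjusted p under 0.05). Deviations of same-numbered samples correlated at -0.024 to 0.0237, and 2 of 6 samples correlated best with their own number, so the samples share only a number.

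Log2 fold changes are the same by construction under other priors and tests, so only averaged probes, an offset, scaling and left-out samples could move them. Hspd1 turned from -0.33 to 0.68 when its 3 probes were averaged, and Hspe1 from 0.10 to -0.04 without LPS replicate 1 (-0.04 to 0.18 with 1 sample left out), and the cause was not tested. Hspa4 ran from 1.72 to 1.91. At the limit of 0.05 it passed with the intensity trend, the robust prior, the offset, the scaling and the filter on dim probes. It also passed that limit in the methods' t-test over probes past its fold rule. In that t-test its adjusted p was 0.044, above the methods' cut-off of 0.025.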

Other observations

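The probes of other chaperone genes with a further probe lay closer together in log2 fold change than those of Hspd1. These genes had 2 probes each and Hspd1 had 3, so their ranges are not alike. Clpx, the unfolding subunit of a mitochondrial protease, had a log2 fold change of 0.20 at its bright probe and of 1.28 at its dim probe (adjusted p = 0.0587 from limma and 0.00429 with the intensity trend). The dim Clpx probe had 4249, 2844 and 3390 in LPS samples and 8336, 9121 and 7670 in 15-HETE + LPS samples, so its groups did not overlap. At the bright probe they did. The study listed Clpx among its changed genes by the dim probe, from these same arrays, which is no independent evidence. The cochaperone Ahsa1 had 0.13 and 0.34, the J-domain protein Dnajc5 had -0.03 and 0.34, and the prohibitin Phb had -0.09 and 0.10.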
